A study of Homo sapiens with 4 samples.

Results

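The genes described here are 9 renal transporters of organic anions and cations, SLC22A2, SLC22A3, SLC22A4, SLC22A5, SLC22A6, SLC22A8, SLC22A11, SLC22A12 and SLC47A1, out of 25992 gene names on the array. They were chosen by name, and every probe that is not a control and carries a member's gene name was used, which gave 13 probes. Gene expression was measured on 1-colour Agilent arrays in 2 human proximal tubular cell lines, HK-2 and RPTEC/TERT1, with 2 arrays to each label. HK-2 cells were immortalised with papillomavirus genes, and RPTEC/TERT1 cells with the catalytic subunit of telomerase, so each line is a culture model of the tubule and not tissue. All 4 arrays are of 1 treatment, in which cells went without serum and supplements for 24 h and then received IL-1β (10 ng/mL) together with empagliflozin (Empa, 500 nM), an inhibitor of the sodium-glucose cotransporter SGLT2, for 24 h. Arrays of unstimulated cells and of either agent alone were not analysed here, so no value below is an effect of IL-1β or of Empa, and the cell line was the remaining contrast.

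Proximal tubular cells clear drugs and metabolites from blood into urine in 2 steps. Organic anions enter from the blood side through SLC22A6 (OAT1) and SLC22A8 (OAT3) in exchange for dicarboxylates, while SLC22A11 (OAT4) and the urate exchanger SLC22A12 (URAT1) sit on the urine side. Organic cations enter through SLC22A2 (OCT2) and SLC22A3 (OCT3) and leave through SLC47A1 (MATE1), which exchanges them for protons. SLC22A4 (OCTN1) carries ergothioneine, and SLC22A5 (OCTN2) carries carnitine, which mitochondria need to take in long-chain fatty acids. Empa itself is a known substrate of OAT3.

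Each probe is a strand of 60 bases, and the probes decide which transcripts are counted. The leading 30 bases of 5 of them are printed as the files list them, for the 3 members whose signal stood out from background, for the other probe of SLC22A8, which did not, and for SLC22A3, which carried a looser mark on some arrays only. No base is in capitals, since no part of a probe is singled out.
SLC22A5, A_24_P174755: ttcagagtagctcactttagtcctgtaact
SLC22A4, A_23_P156180: aaacaagagactcaatggagacagaagaaa
SLC22A8, A_33_P3367171: agactatcgaagacctggaaaactggtcag
SLC22A8, A_24_P304311: tataggtccatcctcctaggatgaagcctt
SLC22A3, A_32_P309404: tcttccattcagatactcatagcgattgca
On GRCh37, the build the files name, the SLC22A5 probe lies at chr5:131731096-131731155 and the SLC22A4 probe at chr5:131679470-131679529, both on the plus strand. The SLC22A8 probes lie on the minus strand of chromosome 11, A_33_P3367171 at 62760861 to 62760920 and A_24_P304311 at 62760573 to 62760632, 288 bases apart. The SLC22A3 probe lies on chromosome 6 at 160875313 to 160875372 and was designed on a cDNA clone, not on a RefSeq transcript. The 60 bases of the SLC22A6 probe span 197 bases of chromosome 11, and those of A_23_P47199 for SLC22A11 span 933, so both cross at least 1 intron. No annotation of GRCh37 was used here, and exon or UTR positions are therefore not given.

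The transcripts of 10 of the 13 probes were found in RefSeq (the gene table of GRCh38.p14), each under the member's own symbol, for 8 of the 9 members. Among the protein-coding genes listed there, 8 members lie next to another member. SLC22A2 is next to SLC22A3, SLC22A4 next to SLC22A5, SLC22A6 next to SLC22A8 and SLC22A11 next to SLC22A12.

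The 75th percentile of the processed signal was 393, 748, 488 and 429 on HK-2 replicates 1 and 2 and RPTEC/TERT1 replicates 1 and 2, and all values below are given in this order of arrays. Across the 22832 probes well above background on any array, the Pearson correlation was 0.870 for the pair of HK-2 arrays and 0.859 for the pair of RPTEC/TERT1 arrays. Arrays were most alike across the labels, with 0.980 for RPTEC/TERT1 replicate 2 against HK-2 replicate 1 and 0.975 for RPTEC/TERT1 replicate 1 against HK-2 replicate 2. These are correlations across probes, which are not independent replicates. Cell lines are named here as the labels give them. The methods call the arrays of a condition biological duplicates.

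Of the 9 members, 3 had a probe marked well above background by Feature Extraction on all 4 arrays, and the other 6 had none that was so marked on any array. Over the 25972 gene names with a measured probe, 53.0% had such a probe on all 4 arrays and 29.8% on none. The 3 members were the carnitine transporter SLC22A5, the ergothioneine transporter SLC22A4 and the anion transporter SLC22A8. The members that were not well above background were the cation transporters SLC22A2, SLC22A3 and SLC47A1 and the anion and urate transporters SLC22A6, SLC22A11 and SLC22A12. The mark compares a spot with the local background, so it limits what can be said at this brightness and does not show that a transcript is absent. In cultures measured in bulk, fewer cells with a transcript and less of it per cell cannot be told apart.

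**Figure D1:**
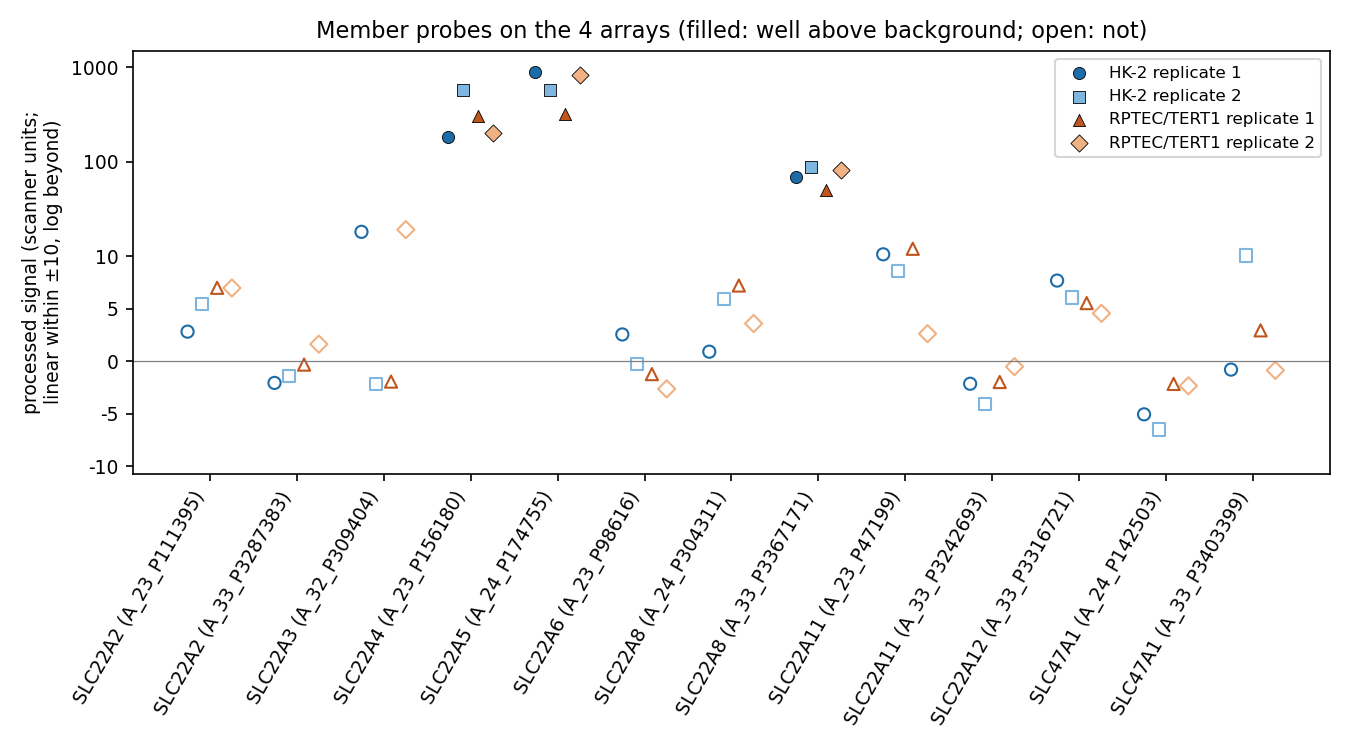
Processed signal of the 13 member probes (vertical axis, scanner units, linear within ±10 and logarithmic beyond) on the 4 arrays; filled symbols are well above background and open symbols are not. The probes of SLC22A4 and SLC22A5 and 1 probe of SLC22A8 are filled on every array, and the other 10 probes are open on every array, between -6.51 and 19.1.

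SLC22A5 had processed signals of 901, 573, 319 and 824. Relative to its array's 75th percentile this was 229%, 76.6%, 65.3% and 192%. On the log2 scale of that ratio, called the level from here on, the values were 1.20, -0.38, -0.61 and 0.94. SLC22A5 was highest on RPTEC/TERT1 replicate 2 and HK-2 replicate 1 and lower on the other arrays, and the labelled lines overlapped. The range over the 4 arrays was 1.81 in log2, or 3.51-fold. Probes spotted 10 times had a median SD between spots of 0.074 to 0.17 in log2, by array and brightness, which is the error of a spot within an array. Among the 16969 probes well above background on all 4 arrays, 18.1% had a wider range than SLC22A5.

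SLC22A4 had processed signals of 181, 578, 304 and 200, or 46.1%, 77.3%, 62.2% and 46.7% of the 75th percentile. Its levels were -1.12, -0.37, -0.68 and -1.10. It was lowest on the arrays where its neighbour SLC22A5 was highest, with a range of 0.74 in log2, or 1.68-fold. The median range over the same 16969 probes was 1.00, and 66.8% of them had a wider one than SLC22A4. In the log2 values that the authors deposited, the order of SLC22A4 was another, at -0.45, -0.23, -0.51 and -0.81 after centring on the 75th percentile. After normexp background correction it was -0.17, -0.28, -0.57 and -0.88, highest on HK-2 replicate 1. Its lower position on HK-2 replicate 1 thus depends on the processing.

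SLC22A8 had 2 probes that disagreed. A_33_P3367171, designed on an Ensembl transcript, gave processed signals of 68.9, 88.8, 50.7 and 82.2, well above background on every array. Its levels were -2.51, -3.07, -3.27 and -2.38, higher on RPTEC/TERT1 replicate 2 and HK-2 replicate 1 than on the others, with a range of 0.89 in log2. A_24_P304311, designed on the RefSeq transcript, gave 0.90, 5.90, 7.21 and 3.58 and was well above background on none. As the sequences above show, the probes are different stretches of the locus, and which transcripts each one binds was not tested. The detection of SLC22A8 thus rests on 1 of its 2 probes. Its mean level over the 4 arrays, -2.81, was -1.66 after normexp background correction, and likewise -1.66 in the authors' log2 values. The levels were -0.25, -2.34, -2.28 and -1.77 after normexp, and -0.77, -2.16, -2.09 and -1.61 in the authors' values. HK-2 replicate 1 moved most, and the range of SLC22A8 was wider in both.

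**Figure D2:**
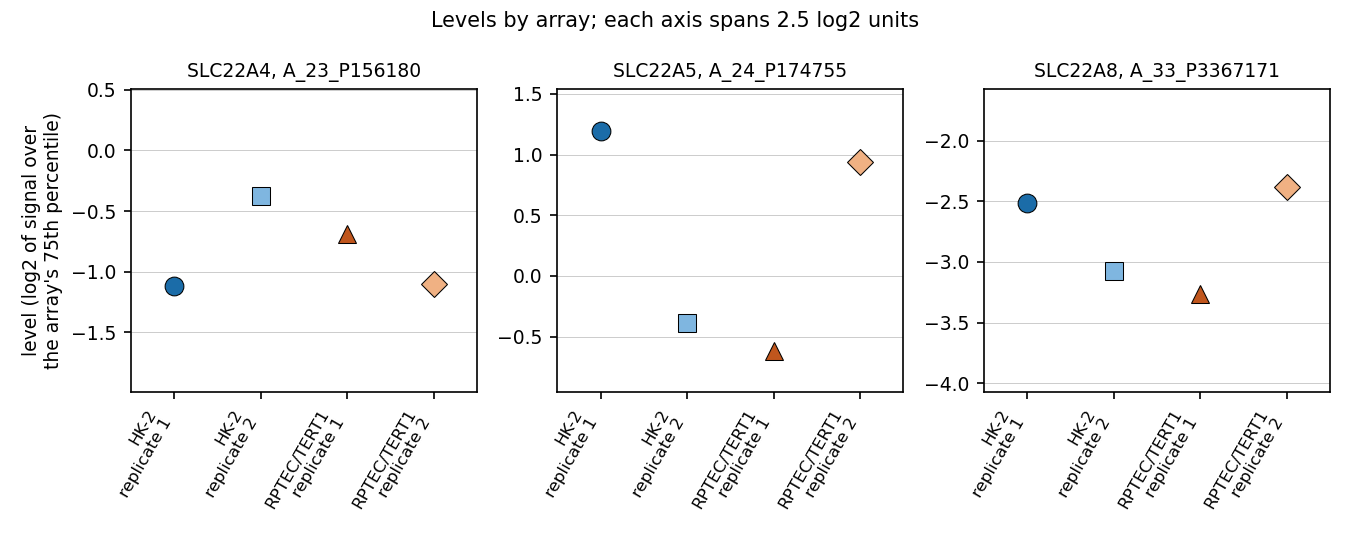
Level (vertical axis, log2 of the processed signal over the 75th percentile of the array) of SLC22A4, SLC22A5 and SLC22A8 on each of the 4 arrays, 1 point per array, with 2.5 log2 units on each axis. SLC22A5 and SLC22A8 are higher on RPTEC/TERT1 replicate 2 and HK-2 replicate 1, and SLC22A4 is lower there.

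That order of the arrays was common. Of the 16969 probes, 40.4% were higher on both RPTEC/TERT1 replicate 2 and HK-2 replicate 1 than on either other array, as SLC22A5 and SLC22A8 were. A further 30.9% were lower on both, as SLC22A4 was in these levels but not after normexp or in the deposited values. These shares describe all probes and carry no test.

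Among the members that were not well above background, SLC22A3, a cation transporter of many tissues, had processed signals of 18.1, -2.15, -1.95 and 19.1. Feature Extraction marked it as positive and significant, a looser mark, on RPTEC/TERT1 replicate 2 and HK-2 replicate 1 only. No negative control spot was brighter on these arrays, whereas 39 and 15 were brighter on RPTEC/TERT1 replicate 1 and HK-2 replicate 2. SLC22A3 thus stood apart on the same arrays on which SLC22A5 was high, at signals that were not well above background on any of them.

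SLC22A12, the urate exchanger, gave 7.68, 6.07, 5.53 and 4.56, and carried the looser mark on all 4 arrays. For SLC22A11, probe A_23_P47199 gave 10.5, 8.57, 12.0 and 2.62 and carried it on the first 3. The other SLC22A11 probe, A_33_P3242693, was below 0 on every array, between -4.10 and -0.53. For neither gene does the signal allow an order of the arrays.

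SLC22A6, the partner of SLC22A8 on the blood side of the cell, gave 2.55, -0.28, -1.24 and -2.64 and carried the looser mark on no array. SLC22A2, the main cation uptake transporter of the human kidney, was read by A_23_P111395 in 10 spots, whose mean signals were 2.81, 5.46, 6.99 and 6.97. The looser mark held for most of these spots on 1 array, and its other probe, A_33_P3287383, lay between -2.08 and 1.62. SLC47A1, the cation exporter, gave -0.81, 10.2, 2.93 and -0.88 on A_33_P3403399 and was below 0 throughout on A_24_P142503. With these, the uptake and export steps for cations were both without a probe well above background.

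Whether the members differ between HK-2 and RPTEC/TERT1 under this treatment was tested with limma over the 20806 probes that were marked well above background on 2 or more arrays. Only the 3 member probes of SLC22A4, SLC22A5 and SLC22A8 passed that filter. None of the 3 was called at an adjusted p under 0.05, and of all probes tested 0.00% were called, so the members' count is that of the background. Arrays were most alike across the labels, so the spread within a label held the difference between the like pairs of arrays. The test could thus hardly call a probe, and the lines cannot be said to be alike from it. At an unadjusted p under 0.05 limma found 26 of all probes and 0 of the members. The labelled lines overlapped for all 3 member probes, while they did not overlap for 6.87% of the probes tested.

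For SLC22A5 the mean level was 0.41 ± 1.12 (SD, n = 2) for HK-2 and 0.16 ± 1.10 (SD, n = 2) for RPTEC/TERT1. The difference, HK-2 minus RPTEC/TERT1, was 0.24 (SE 0.87, 95% interval -2.10 to 2.59, adjusted p = 1 from limma). The spread between arrays of 1 label was larger than the difference. Each array shared its scan date with 1 other array. Which arrays shared a date is not given here, so the date cannot be told apart from replicate number, label or like pairs. Within replicate 1 the difference was 1.81, and within replicate 2 it was -1.33, so the sign turned between the replicate numbers. The difference also fell below 0 after normexp correction (-0.094), without RPTEC/TERT1 replicate 1 (-0.54) and without HK-2 replicate 1 (-0.55).

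For SLC22A4 the means were -0.74 ± 0.53 (SD, n = 2) and -0.89 ± 0.29 (SD, n = 2), with a difference of 0.15 (SE 0.53, 95% interval -1.27 to 1.57, adjusted p = 1 from limma). It was -0.43 within replicate 1 and 0.73 within replicate 2, and -0.22 without HK-2 replicate 2 and -0.059 without RPTEC/TERT1 replicate 2. For SLC22A8 the means were -2.79 ± 0.40 (SD, n = 2) and -2.83 ± 0.63 (SD, n = 2), with a difference of 0.032 (SE 0.57, 95% interval -1.49 to 1.55, adjusted p = 1 from limma). It was 0.75 within replicate 1 and -0.69 within replicate 2, and -0.25 without HK-2 replicate 1 and -0.41 without RPTEC/TERT1 replicate 1. For both genes the direction thus turned with the arrays used. The size changed with the processing too, to 0.51 for SLC22A4 and 0.73 for SLC22A8 after normexp correction. The intervals leave room for differences of more than 1 log2 unit in either direction for each of the 3 genes, and each array of a replicate number stands alone for its label.

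**Figure D3:**
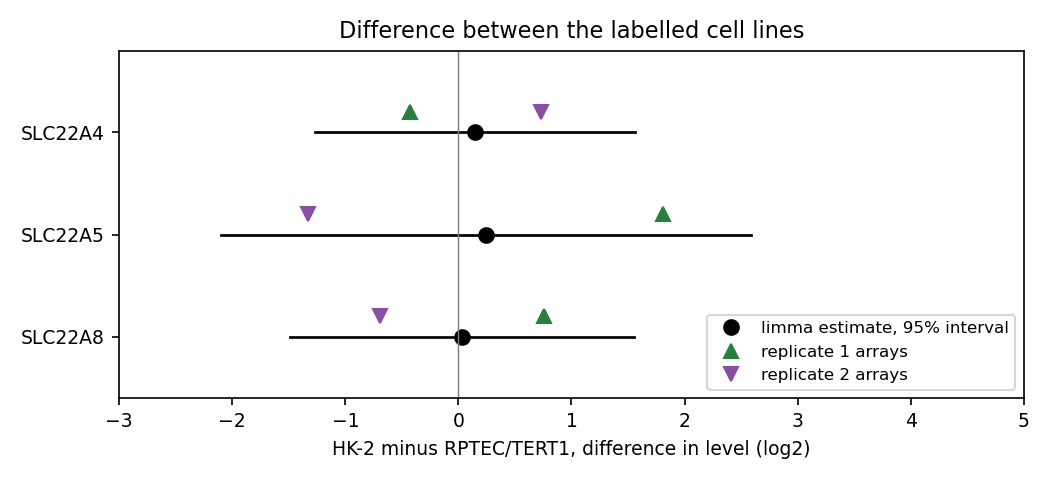
Difference in level between the labelled cell lines, HK-2 minus RPTEC/TERT1 (horizontal axis, log2), for SLC22A4, SLC22A5 and SLC22A8. Circles and bars are the limma estimate with its 95% interval over 4 arrays, and triangles are the differences within replicate 1 and replicate 2, which lie on opposite sides of 0 for each gene.

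Single arrays were also set side by side. HK-2 replicate 1 minus RPTEC/TERT1 replicate 2 gave a difference in level of 0.25 for SLC22A5, -0.018 for SLC22A4 and -0.13 for SLC22A8. HK-2 replicate 2 minus RPTEC/TERT1 replicate 1 gave 0.23, 0.31 and 0.19 for the same genes. Replicate 1 minus replicate 2 gave 1.58, -0.74 and 0.56 within the HK-2 label and -1.56, 0.41 and -0.89 within the RPTEC/TERT1 label. Each compares 1 array with 1 array, with no test.

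The gene names whose levels, centred over the 4 arrays, were closest to SLC22A5 were BC023640, CCNO and ZFHX4, with a root mean square difference of 0.033, 0.033 and 0.035 in log2 over the 4 arrays. BC023640 was at -5.37 on RPTEC/TERT1 replicate 1, the lowest level set for dim signals, so its range was cut off there. Of the 16288 gene names compared, 61 were within 0.1 of SLC22A5. For SLC22A8 the closest were TFIP11, DEDD2 and a probe without a gene name, A_33_P3229012, at 0.017, 0.018 and 0.020, and 403 were within 0.1. The likeness rests on 4 arrays that fall into like pairs.

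Carnitine that enters through SLC22A5 is used by the carnitine acyltransferases and the mitochondrial carrier. Of 8 genes of carnitine synthesis and use, 4 were well above background on all 4 arrays, 3 on some and 1, BBOX1, the last enzyme of carnitine synthesis, on none. CPT1A, which attaches long-chain fatty acids to carnitine, had levels of -2.35, -5.37, -5.35 and -2.25, where -5.37 is the floor set for dim signals. SLC25A20, the carrier of the inner mitochondrial membrane, had levels of -0.67, -2.92, -2.32 and -0.89. Both were higher on RPTEC/TERT1 replicate 2 and HK-2 replicate 1, as SLC22A5 was. Of the list's 6 genes well above background on any array and with a value on all 4, 5 were higher on both. The remaining 1 was lower on both. Among all gene names so marked, 36.6% were higher on both and 31.0% lower. ALDH9A1, of carnitine synthesis, ranged from 0.43 to 1.56, and CRAT, which acts on short acyl groups, had 3.43, 2.43 and 2.55 and no value on RPTEC/TERT1 replicate 2, where its spot was an outlier. Limma called 0 of the 7 probes of the list that were tested, and the median difference between the labelled lines was 0.11, beside 0.017 over all 16288 gene names tested.

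**Figure D4:**
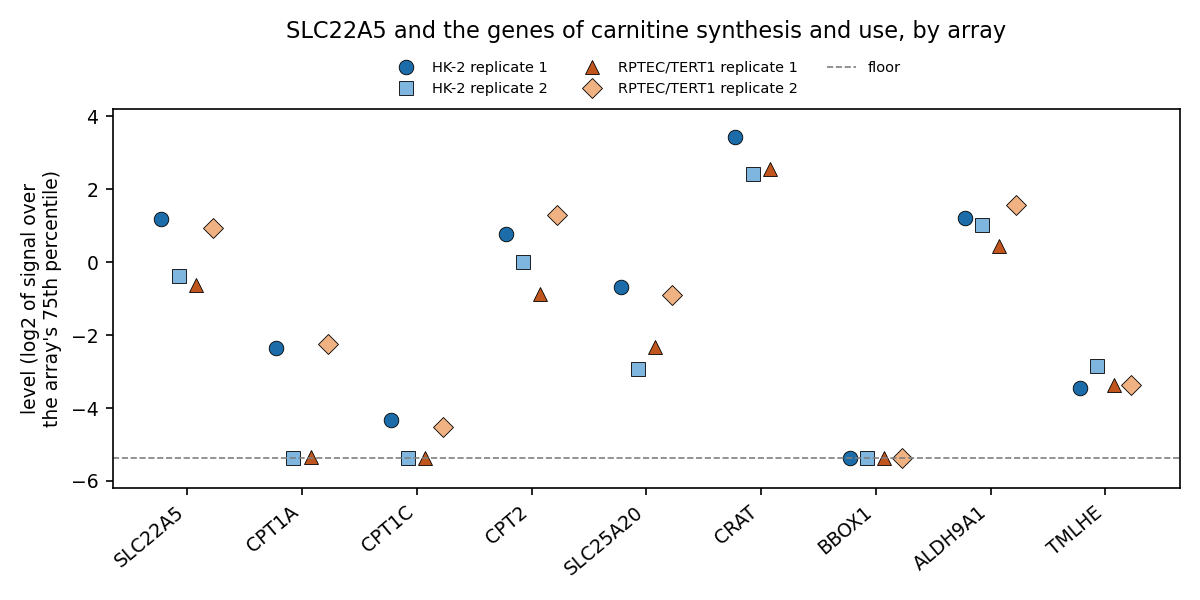
Level (vertical axis, log2 of the processed signal over the 75th percentile of the array) of SLC22A5 and of 8 genes of carnitine synthesis and use on the 4 arrays, with the floor of -5.37 as a dashed line. SLC22A5, CPT1A and SLC25A20 are higher on RPTEC/TERT1 replicate 2 and HK-2 replicate 1, while BBOX1 lies at the floor.

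Transporters and scaffold proteins that work beside the members were well above background in part. Of 11, 6 were so on all 4 arrays, 3 on some and 2, SLC2A9 and ABCG2, both of urate handling, on none. PDZK1, a scaffold known to bind SLC22A12, SLC22A4 and SLC22A5, had levels of -1.34, 1.52, 1.04 and -0.86, lower where SLC22A5 was higher. SLC17A3, an exporter of organic anions and urate on the urine side, had levels of -0.80, -4.31, -4.31 and -0.63, and the drug exporter ABCB1 of -1.43, -4.34, -4.21 and -1.21. SLC9A3R1, a further scaffold, ranged from 0.81 to 1.59. Limma called 0 of the 9 probes tested, with a median difference of -0.0014.

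Of 5 transcription factors known to act on genes of transport and metabolism, 2 were well above background on all 4 arrays, 1 on some and 2, HNF4A and NR1I2, on none. RUNX1 ranged from -2.44 to -2.12, and PPARA, which is known to act on SLC22A5, from -3.72 to -3.31. HNF4G, a relative of HNF4A, had levels of -5.34, -4.95, -4.97 and -3.90, with its highest value on RPTEC/TERT1 replicate 2. Limma called 0 of the 6 probes tested, with a median difference of 0.014.

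Of 16 other members of the SLC22 and SLC47 families, 8 were well above background on all 4 arrays, 4 on some and 4, SLC22A13, SLC22A16, SLC22A25 and the MATE paralogue SLC47A2, on none. SLC22A31, an orphan transporter, had levels of 4.08, 3.16, 3.41 and 4.30. SLC22A18 stayed within 0.26 to 0.40, SLC22A23 ranged from -3.73 to -1.59, and SLC22A10 from -4.41 to -2.13. Limma called 0 of the 15 probes tested, with a median difference of -0.074.

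**Figure D5:**
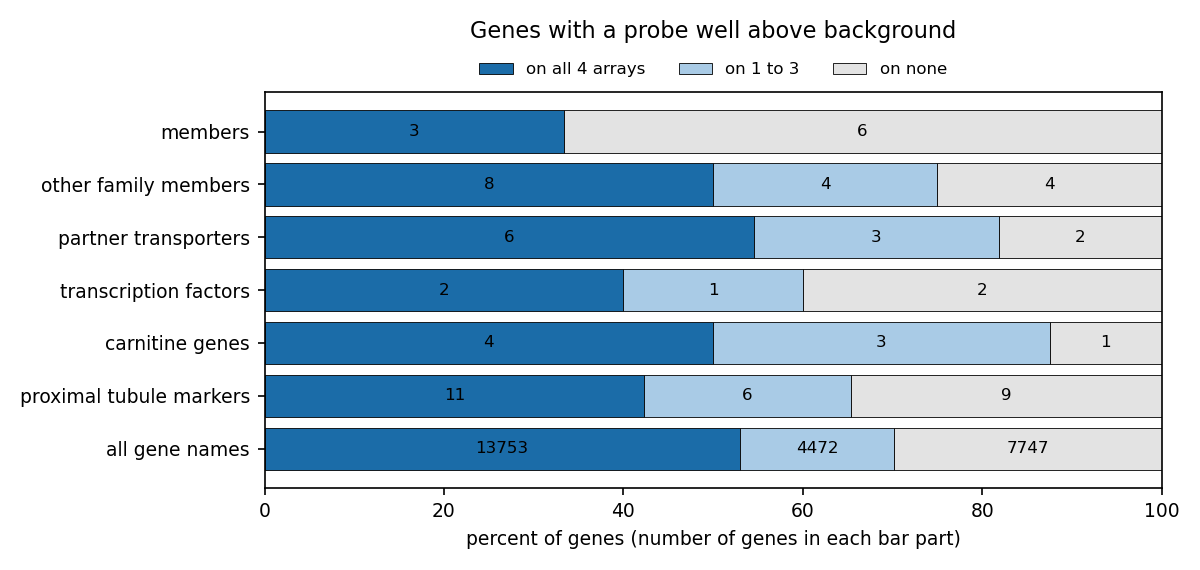
Share of genes (horizontal axis, percent, with numbers of genes in the bars) with a probe well above background on all 4 arrays, on 1 to 3 or on none, for the 9 members, 5 lists of other genes and all gene names. Of the members 3 are in the leading class and 6 in the last.

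Promoters of 5 members were in the RefSeq table of GRCh38.p14, as windows from 250 bases before to 50 after the start. A window was called CpG-rich where the observed over expected CpG ratio was at least 0.6 and GC was at least 50%, which held for 46.9% of all 35116 windows. SLC22A5, with 36 CpGs, and SLC22A4, with 29, were CpG-rich and were well above background. SLC22A2 with 11 CpGs, SLC22A12 with 9 and SLC22A6 with none were not CpG-rich and were not well above background. SLC22A8, which was also well above background, had no window, and neither had SLC22A3, SLC22A11 and SLC47A1. Of the gene names on the array, 76.7% of 9402 with a CpG-rich window were well above background on all 4 arrays, and 36.0% of 5393 with another window. The upstream 250 bases of SLC22A5 (chr5:132369460-132369709, plus strand) and those of SLC22A6 (chr11:62984968-62985217, minus strand) are shown as the windows with most and with fewest CpGs of the 5, with each CG in capitals.
SLC22A5: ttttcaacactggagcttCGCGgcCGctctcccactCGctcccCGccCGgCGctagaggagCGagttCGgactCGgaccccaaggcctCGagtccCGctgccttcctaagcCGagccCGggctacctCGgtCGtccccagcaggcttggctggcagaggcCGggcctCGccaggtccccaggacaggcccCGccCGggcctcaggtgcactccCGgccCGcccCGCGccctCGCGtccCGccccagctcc
SLC22A6: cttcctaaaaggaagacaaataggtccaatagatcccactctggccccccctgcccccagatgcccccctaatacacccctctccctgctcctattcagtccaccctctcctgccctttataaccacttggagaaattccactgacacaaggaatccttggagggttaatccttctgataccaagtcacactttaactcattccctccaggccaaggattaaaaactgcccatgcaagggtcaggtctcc
CAAAGTCCA, a motif of HNF4A, was searched on both strands and was in none of the 5 and in 0.384% of all windows. At so low a share, finding none in 5 windows was all but fixed beforehand and tells nothing about HNF4A. A match describes letters and not a bound site.

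The lines were checked against a list of proximal tubule markers, some of which are not particular to that part of the tubule. Of 26, 11 were well above background on all 4 arrays, 6 on some and 9 on none, among the latter the cubilin gene CUBN and the gluconeogenic genes PCK1, G6PC and FBP1. The summed signal of the list, with dim genes at the floor, was 6591%, 1259%, 1553% and 6700% of the 75th percentile. CDH16, PAX8 and PAX2, which are not particular to the proximal tubule, made up 5335%, 376%, 760% and 5084% of these sums. The sums thus do not describe the whole list. The other 23 markers summed to 1256%, 882%, 793% and 1615%. CDH16, PAX8, PAX2 and ANPEP were each higher on RPTEC/TERT1 replicate 2 and HK-2 replicate 1, PAX2 at 2.90, -5.37, -5.37 and 2.66. Other markers went the opposite way, with CDH6 at -3.26, 0.27, 0.86 and -3.49 and MIOX at -3.06, -0.07, -0.39 and -2.51. Of the 17 markers well above background on any array, 7 were higher on both of those arrays than on either of the others, 6 were lower on both and 4 were neither, against 36.6% higher and 31.0% lower among all 17742 gene names so marked. Of 6 fibroblast markers 3 were well above background on some arrays and COL1A2, COL3A1 and PDGFRB on none, with sums of 15.4%, 194%, 148% and 15.1%. LUM, at -0.30 and 0.23, and DCN, at -0.87 and -0.61, made up most of the sums on RPTEC/TERT1 replicate 1 and HK-2 replicate 2, and both lay at or near the floor on the other arrays. Of the other lists, 1 of 5 endothelial cell, 3 of 5 leukocyte, 1 of 4 loop and distal tubule, 0 of 3 collecting duct and 2 of 2 podocyte markers were well above background on all 4 arrays. The loop and distal tubule sum was 87.3%, 21.9%, 21.9% and 114%, with SLC12A1 at -0.51, -5.37, -5.37 and -0.10, so it was higher on the arrays where SLC22A5 was higher. The leukocyte sum was 96.9%, 144%, 190% and 90.1%, lower on those arrays, and was mostly CD68, at -0.49, 0.15, 0.62 and -0.54. The endothelial cell sum, 41.9%, 29.1%, 22.0% and 42.3%, was higher there, but through different genes. PECAM1 was at -3.07 on HK-2 replicate 1 and TIE1 at -2.56 on RPTEC/TERT1 replicate 2, each at or near the floor on the other arrays. The podocyte sum ranged from 14.7% to 55.9%. The collecting duct sum, 7.25% to 8.26%, was that of genes at or near the floor, as none of the 3 was well above background on any array. The part of all these markers in the values of the members was not tested.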

How the data were processed

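The authors deposited, for each of the 4 arrays, spot intensity values from Agilent Feature Extraction 9.5.3.1, and flags for each spot, not scaled between arrays. The processed signal is background-subtracted per the file headers. A table of log2 values of these spots was deposited too, made by steps not given in the sources used here, and served as an alternative. The labels name the RNeasy kit for RNA isolation, and the methods another kit.

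Control and outlier spots were left out, and each signal was scaled to its array's 75th percentile, averaged per probe, set to a floor of 0.0242 (level -5.37) and taken to log2. A probe counted as well above background when most of its spots, ties included, carried that mark. Gene levels in the lists average the probes so marked on any array, or every probe of a gene without one. Labelled lines were compared with limma 3.58.1 in R 4.3.3 (lmFit, eBayes) over 20806 probes, with Benjamini-Hochberg adjustment over all of them. The number of arrays limits the precision.

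Named genes are the 9 members, up to 4 genes per list (the brightest 2 and the widest 2 in range) and the 3 names most like each of the 2 members of widest range among those well above background on at least 2 arrays. List genes not well above background on any array, CDH6, MIOX and the promoter motif were named after values were seen. Some list genes are not reported here. The members and lists were chosen with earlier results of these data known. The alternatives were normexp with an offset of 50, quantile normalization, the deposited log2 values, a replicate block, other filters and flags, gene means, outlier spots kept and each array left out.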

Additional observations from a re-analysis of the deposited data

How the results depend on the processing

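Limma called 0 member probes and 0 of all probes under every alternative run, with 5 to 296 of all probes at an unadjusted p under 0.05. With the replicate block, limma called 0 and found 5 below 0.05 without adjustment. Deviations of arrays with the same number had a correlation of -0.769. With crossed pairing, chosen after seeing the data, it called 0 and found 193 below 0.05 without adjustment. Of the 9 members, 3 were well above background on all arrays, and the number was 3 with any 1 array left out. It was 4 with the looser mark and 6 where a signal above the 95th percentile of the negative controls sufficed, which is a lower limit by construction. Over all 25972 gene names the share on all 4 arrays was 63.55% with the looser mark and 71.18% with the 95th percentile. At that lowest limit the members' share, 66.67%, was thus near that of all gene names.

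The difference HK-2 minus RPTEC/TERT1 turned for SLC22A5 to -0.094 after normexp, to -0.55 without HK-2 replicate 1 and to -0.54 without RPTEC/TERT1 replicate 1, from 0.24. For SLC22A8 it turned from 0.032 to -0.25 and -0.41 without the same arrays. The SLC22A8 difference was 0.73 after normexp and 0.38 in the deposited log2 values, so its size also depended on the processing. For SLC22A4 it turned from 0.15 to -0.22 without HK-2 replicate 2 and -0.059 without RPTEC/TERT1 replicate 2. The SLC22A4 difference was 0.51 after normexp and 0.32 in the deposited log2 values. With 1 array left out the differences ranged from -0.55 to 1.03, -0.41 to 0.47 and -0.22 to 0.52 for SLC22A5, SLC22A8 and SLC22A4, and the lone array of a label was assumed to vary like the other label. The mean level of SLC22A8, -2.81, was -1.66 after normexp and -1.66 in the deposited log2 values. The shift was largest on HK-2 replicate 1, and the cause was not tested. Brightness over background limits what can be read of the 6 dim members.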
